A study of Mus musculus with 3 samples.

Results

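Extraembryonic mesoderm cells were picked from single-cell RNA libraries of mouse gastrulae by the transcripts they held. A cell was a member when it had 2 or more unique molecular identifiers (UMIs) of Hand1 and at least 1 UMI of at least 2 of Bmp4, Foxf1, Pmp22 and Ahnak. It also had to lack UMIs of Etv2 and Tal1, which mark blood and endothelial progenitors, and of Elf5 and Rhox9, which mark extraembryonic ectoderm. The rule found 797 members among 19795 kept cells: 105 of 6795 at embryonic day 7.0 (E7.0), 364 of 5052 at E7.25 and 328 of 7948 in the posterior region at E7.5 (E7.5 posterior). A kept cell had at least 1000 detected genes, at most 10% mitochondrial UMIs and under 20000 UMIs. Levels of these genes chose the cells, so they are given as a description and support nothing.

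All 3 groups were untreated embryos of the ARC mouse strain with no engineered allele named, and each group was 1 library with no replicate. Whole embryos were named as the source at E7.0 and E7.25, and only the posterior region at E7.5. Stage, library and, at E7.5, dissected region therefore cannot be told apart, and no test between stages was possible. How many embryos each library held is not given in the sources used here.

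Extraembryonic mesoderm is the first mesoderm to leave the posterior end of the primitive streak. It lines the inside of the yolk sac, the amnion and the chorion, and it grows into the allantois, the bud that later joins embryo and placenta. Bone morphogenetic protein (BMP) signals are needed for its formation, and its cells express Hand1, a basic helix-loop-helix factor required in extraembryonic tissues. Foxf1 encodes a forkhead factor of allantois and lateral plate mesoderm. Pmp22 encodes a membrane protein and Ahnak a very large scaffold protein of the cell periphery.

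The libraries held 10232, 6173 and 11468 barcodes and 111010034, 48836272 and 92190474 UMIs in the order E7.0, then E7.25, then E7.5 posterior. Kept cells had median depths of 10436, 8208 and 9012.5 UMIs. Between 14 and 35 barcodes were shared by each pair of libraries, and no member's barcode was shared. Values below are UMIs summed over the members of a library and scaled to counts per 1000000 UMIs (CPM), and ratios are log2 of CPM. Ranges in parentheses are exact 95% intervals that cover counting error only, since PCR copies were collapsed but no spread between embryos was measured. Values given as a run of 3 stand for the 3 libraries in that order.

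Members made up 1.55% (1.27 to 1.87) of kept cells at E7.0. They made up 7.21% (6.51 to 7.95) at E7.25, and 4.13% (3.7 to 4.59) in the posterior library of E7.5. The share was thus lowest at E7.0 and highest at E7.25, and the intervals did not overlap. After each cell was thinned to 5000 UMIs and the rule applied again, the shares were 0.809%, 6.01% and 2.59%, in the same order. Members had median depths of 12061, 8609.5 and 10068 UMIs.

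Hand1 (chromosome 11, bases 57828705 to 57832818, minus strand, GENCODE M21 on GRCm38) had a median of 4, 5 and 5 UMIs per member and a highest value of 23, 30 and 24. Bmp4, the BMP ligand that the extraembryonic tissues send to the streak, was detected in 70.5%, 84.9% and 79.3% of members. For Foxf1 these shares were 88.6%, 69.8% and 79.9%, for Pmp22 81.9%, 87.6% and 76.2%, and for Ahnak 29.5%, 63.7% and 41.8%. All 4 genes were detected together in 15.2%, 33.2% and 18.6% of members. The E7.25 members were therefore the most complete by the rule's own genes, at the lowest median depth of the 3 libraries.

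**Figure D1:**
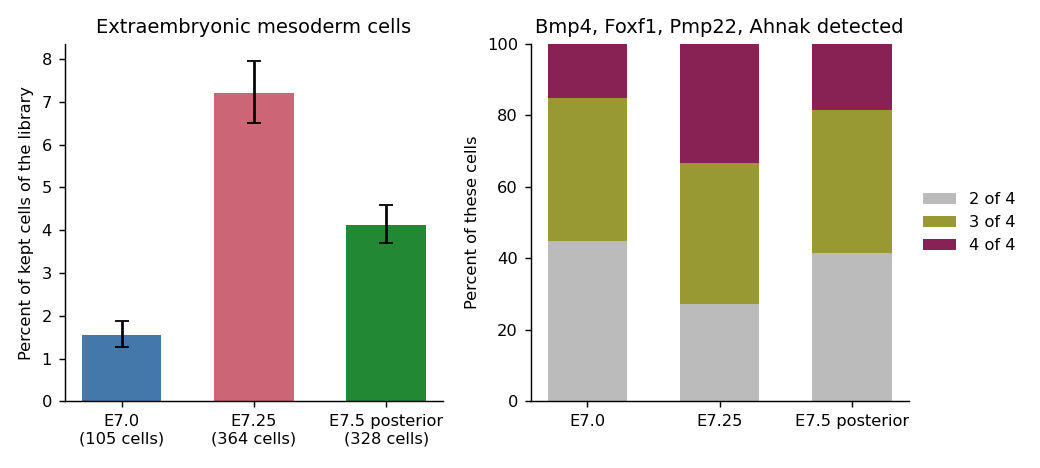
Left, members as a percent of the kept cells of each library, with exact 95% intervals as error bars. Right, the percent of members in which 2, 3 or 4 of Bmp4, Foxf1, Pmp22 and Ahnak were detected. The E7.25 library has the tallest bar on the left, 7.21%, and the largest 4 of 4 segment on the right, 33.2%.

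Cells on the 2 sides of the rule's edges were near each other in Mesp1 and less so in Krt8 at E7.25. Members with exactly 2 Hand1 UMIs numbered 25, 48 and 64, and cells that failed only by having 1 Hand1 UMI numbered 30, 55 and 86. Mesp1 encodes the transcription factor that newly formed mesoderm switches on as it leaves the streak. It was at 1350.0, 508 and 667 CPM in the first set and at 1315, 563 and 748 CPM in the second. Krt8, a keratin gene, was at 110, 705 and 203 CPM in the first set and 164, 442 and 211 CPM in the second. At the other edge, Mesp1 was at 1223, 645 and 712 CPM in members with exactly 2 of the 4 genes. Cells that failed only by having 1 of the 4 had Mesp1 at 1115, 609 and 756 CPM. Among cells with 2 or more Hand1 UMIs, 103, 174 and 98 met the 2-of-4 condition but held an excluded gene. Most of those held Etv2 or Tal1 (88, 137 and 98 cells). The cells removed for Elf5 or Rhox9 numbered 17, 44 and 0, and they had Foxf1 at 0 and 9.82 CPM and Mesp1 at 12.5 and 29.5 CPM at E7.0 and E7.25. A further 30, 11 and 27 barcodes met every other condition but had 20000 or more UMIs.

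Genes that the rule did not use described the same cells. Msx1 and Msx2 encode homeodomain factors that BMP signals induce, and Tbx3 encodes a T-box factor of the extraembryonic and lateral mesoderm. Msx1 was at 144, 197 and 134 CPM in members. Nascent mesoderm cells of the same libraries had 2 or more Mesp1 UMIs and no UMI of Hand1, Etv2, Tal1, Elf5 or Rhox9. In these 1820, 671 and 1617 cells, Msx1 was at 26.6, 20.6 and 17.1 CPM. Msx2 stood at 64.9, 56.3 and 67.4 CPM in members and 3.67, 5.37 and 6.14 CPM in nascent mesoderm. The corresponding Tbx3 levels were 107, 89.4 and 62.8 CPM and 9.98, 6.58 and 4.62 CPM. Each of these genes was lower in nascent mesoderm in every library.

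Beside visceral endoderm, detection per cell was higher in members for Msx2 in each library, but not for Tbx3 at E7.25 and E7.5 posterior. At 5000 UMIs per cell, Msx2 was detected in 34%, 24.2% and 28.7% of members (46.7%, 36.5% and 44.2% before thinning) and in 7.34%, 7.03% and 11.8% of visceral endoderm cells, an endoderm layer that should lack it. Spin2c, a spindlin family gene, was detected in 27.2%, 57.6% and 42.3% of members and 6.12%, 2.57% and 6.34% of visceral endoderm cells. Tbx3 was detected in 37.9%, 34.9% and 23.7% of members and 31.5%, 35% and 32.6% of visceral endoderm cells. Its share in members at E7.25 and E7.5 posterior did not exceed that in visceral endoderm. Whether visceral endoderm cells express Tbx3 was not tested, so they are not taken as a background for this gene. These shares rest on the 103, 347 and 317 members and 572, 740 and 331 visceral endoderm cells that were deep enough to thin. Visceral endoderm cells had median depths of 10395.5, 7863 and 8172 UMIs.

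Of 31 allantois and yolk sac genes outside the rule, 24, 31 and 29 had a UMI and 7, 14 and 13 were at 20 CPM or more, and their summed level was 656.5, 1161 and 995 CPM. Spin2c and Msx1 were the highest of them at E7.25, and Spin2c was at 93.4, 225 and 178 CPM in the 3 libraries. Dlk1, a non-canonical NOTCH ligand, was at 11.9, 54.8 and 38.3 CPM and Pitx1, a homeodomain factor of the hindlimb field, at 1.58, 37 and 10.7 CPM. Other genes of the list, named after their values were seen, were at or near 0 over the members as a whole. Tbx4, a T-box factor of the allantois, was at 0, 5.15 and 0.288 CPM, and Vcam1, the adhesion molecule with which the allantois attaches to the chorion, was at 0, 2.12 and 0.288 CPM. Hoxa10 was at 0, 3.63 and 1.44 CPM and Postn, a matrix protein, at 0, 0.303 and 0 CPM. At E7.25 Tbx4 was highest in 1 of 5 groups of members, at 28.95 CPM.

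Marker lists of neighbouring lineages were present at differing levels. The 17 primitive streak genes summed to 1718, 527 and 890 CPM and the 16 nascent and paraxial mesoderm genes to 1402, 681 and 1047 CPM. Mesp1 was the highest gene of both lists. The 16 epiblast genes summed to 749, 532 and 631 CPM. At E7.0 each of these 3 sums was above the 656.5 CPM of the allantois and yolk sac list. At E7.5 posterior the nascent and paraxial sum was above its 995 CPM. The 20 cardiac and lateral mesoderm genes summed to 664, 684 and 595 CPM, with the atrial myosin light chain gene Myl7 highest at 284, 208 and 181 CPM. The 24 visceral endoderm genes summed to 620, 1419 and 598 CPM, at E7.25 more than the allantois and yolk sac list, and Apoe, an apolipoprotein gene, was the highest of them at 337, 531 and 322 CPM. The 26 blood and endothelium genes that the rule did not use summed to 228, 218 and 173 CPM, and Klf1, Hba-x, Cdh5, Sox18 and Tie1 were at 0 in all 3 libraries. The 19 trophoblast genes outside the rule summed to 204, 256 and 201 CPM, with Eomes highest at E7.0, Cdx2 in the later libraries and Duox2 at 0. Among the 13 amnion and surface ectoderm genes, which summed to 58.6, 93.0 and 72.3 CPM, Tfap2b and Vtcn1 were at 0 throughout. The part of these transcripts in the results was not tested, apart from the 25 members described with Ttr and the globins.

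Against nascent mesoderm, members carried more transcripts of BMP response, imprinted and keratin genes and fewer of streak, paraxial, FGF and NOTCH genes. Among genes at 20 CPM or more on at least 1 side in each library, 68 were at least 2-fold higher in members in all 3 libraries (1.40% of 4863) and 47 were at least 2-fold lower (0.966%). In single libraries 2.17%, 3.93% and 2.69% of genes were higher and 2.0%, 2.39% and 1.62% lower. The 2 populations were chosen on Hand1 and Mesp1 counts in the same cells, so these numbers describe the choice and nothing is read from them. Ranked by the ratio nearest 0 among the 3 libraries, the highest were Dok4, encoding an adaptor of the docking protein family, with log2 values of 4.52, 4.8 and 4.49, Morc4, a nuclear ATPase gene, with 4.15, 3.75 and 4.64, Spin2c, with 3.75, 4.76 and 4.57, and Stard8, a GTPase-activating protein gene, with 3.6, 5.38 and 4.32. At the other end stood Lefty2, a NODAL inhibitor of the streak, with -4.16, -6.03 and -3.84.

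In the BMP response list, 6 of 8 measured genes were higher at E7.0, 6 of 9 at E7.25 and 6 of 9 at E7.5 posterior, and 1 was lower in each. Msx1, Msx2, Tbx3, Smad7 and Bambi were higher in every library, and Sp5, a WNT target also kept in this list, was lower. Smad7 and Bambi encode feedback inhibitors that BMP signalling induces. Smad7 was at 51.5, 77.3 and 71.2 CPM in members and 13.4, 19.1 and 13.9 CPM in nascent mesoderm. Id1, a direct BMP target, was at 119, 108 and 169 CPM in members against 87.9, 83.7 and 121 CPM. Among ligands and inhibitors, Fst, a secreted activin inhibitor, was lower in members in every library, at 45.1, 37.9 and 63.1 CPM against 199, 182 and 199 CPM.

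Imprinted growth genes were higher in members for 6 of 13 measured at E7.0, 9 of 15 at E7.25 and 8 of 15 at E7.5 posterior, with 0, 1 and 1 lower. Phlda2, a growth regulator of placental tissues, was at 2848, 2663 and 3819.8 CPM against 605, 1039 and 1232 CPM. Igf2, the fetal growth factor, was at 46.7, 80.9 and 44.7 CPM against 5.58, 12.5 and 6.08 CPM. Peg10, a retrotransposon-derived gene of the placenta, was at 127, 249.6 and 164 CPM against 15.1, 35.2 and 26.1 CPM. H19, Mest and Cdkn1c were also higher in all 3 libraries.

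Keratins and cortical cytoskeleton genes followed. Krt8 and Krt18, partners in the simple epithelial keratin filament, were at 259.8, 956 and 482 CPM and 198, 947 and 439 CPM in members. Nascent mesoderm had 71.5, 119 and 67.7 CPM and 35.1, 77.8 and 46.3 CPM. Vim, the mesenchymal intermediate filament, was also higher, at 166, 462 and 331 CPM against 60.5, 87.7 and 103 CPM. Podxl, a sialomucin of free cell surfaces, was at 35.6, 141 and 73.8 CPM against 7.98, 17.8 and 10.1 CPM. Of the actin, annexin and S100 list, 4 of 16, 12 of 21 and 7 of 18 measured genes were higher and none was lower in these 3 comparisons.

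On the other side, genes of the streak and of the paraxial path were lower. The primitive streak list had 8 of 12, 9 of 11 and 8 of 10 measured genes lower, and the nascent and paraxial list 6 of 9, 9 of 12 and 9 of 13, with none higher. Lhx1, a LIM homeodomain factor of early mesoderm, was at 146, 17.6 and 44.4 CPM in members against 749, 187 and 162 CPM. Brachyury (gene T), the T-box factor of the streak, was at 28.5, 47 and 104 CPM against 165, 313 and 331 CPM. Tbx6, the paraxial T-box factor, was at 3.96, 3.63 and 14.4 CPM against 23.3, 48.9 and 53.7 CPM. In the NOTCH list the ligand genes Dll1, Dll3 and Jag1 and the receptor gene Notch1 were lower in all 3 libraries, while the target gene Hes1 was higher, at 177, 53.3 and 101 CPM against 82.7, 17.7 and 33.1 CPM.

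FGF genes were lower for 7 of 12, 7 of 12 and 5 of 11 measured, among them the feedback phosphatase genes Dusp4 and Dusp6 and the target gene Etv4 in every library. Fgfr2 and Fgfr3, encoding receptors, were higher in the latter 2 libraries. Among the endothelial growth factor genes, the VEGF receptor gene Kdr was at 106, 46.7 and 44.7 CPM against 28.8, 19.9 and 12.3 CPM and its co-receptor gene Nrp1 at 42, 79.7 and 59.9 CPM against 7.14, 8.84 and 5.95 CPM. Aplnr, the apelin receptor gene, was lower, at 19.8, 17.6 and 21.3 CPM against 55.8, 75 and 69.2 CPM. S phase and G2 and M phase lists, with 18 measured genes each, had no gene 2-fold apart in any library. Over all genes tested, the median log2 ratio was 0.03, 0.03 and 0.05.

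**Figure D2:**
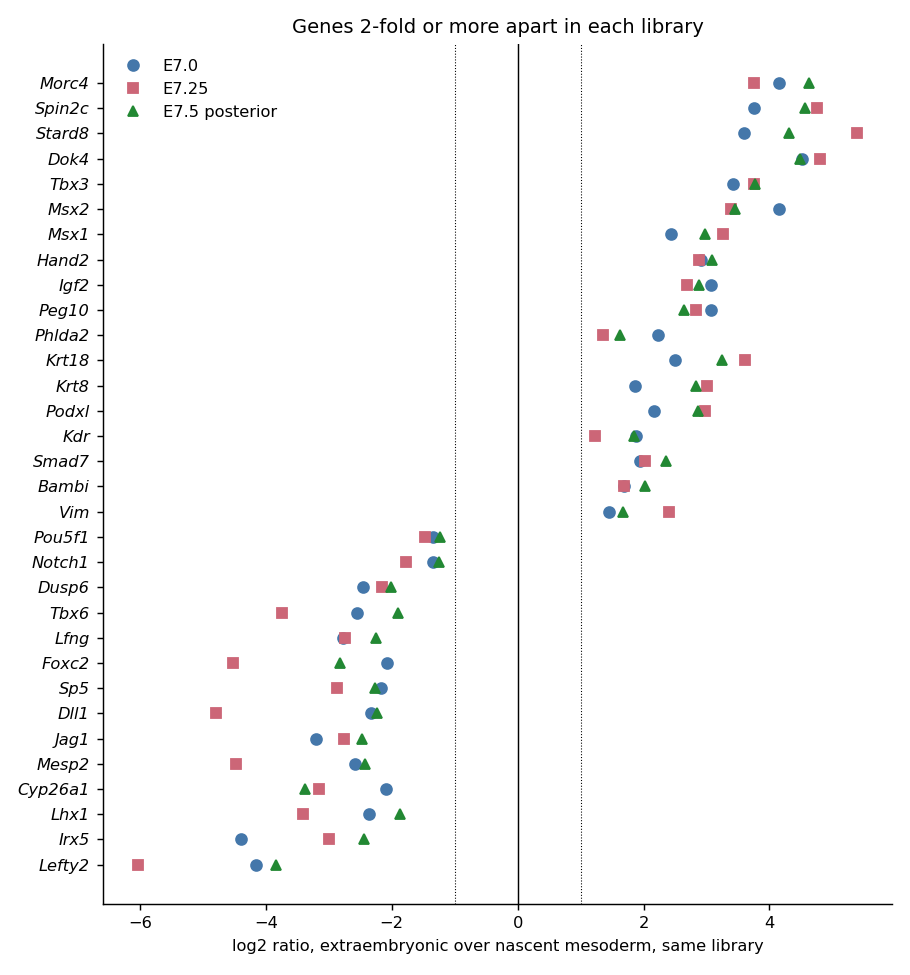
log2 ratio of CPM, members over nascent mesoderm of the same library, for selected genes that were at least 2-fold apart in the same direction in each library. Circles are E7.0, squares E7.25 and triangles E7.5 posterior, and dotted lines mark 2-fold. Morc4 lies at 4.15, 3.75 and 4.64 and Lefty2 at -4.16, -6.03 and -3.84.

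Blood and endothelial progenitors (162, 150 and 115 cells) had 2 or more UMIs of Etv2 and Tal1 together and no UMI of Elf5 or Rhox9. They also held at least 1 UMI of Kdr, Lmo2, Fli1 or Gata2, and these genes were left out of the comparison. Fewer genes set them apart from members than set nascent mesoderm apart. However, nascent cells had to lack Hand1 and progenitors did not. Among cells that met the Hand1 and 2-of-4 conditions, 88, 137 and 98 held Etv2 or Tal1. The 2 comparisons are therefore unlike. There were 5 genes at least 2-fold higher in members in all 3 libraries (0.103% of 4861), namely Msx2, Arl4c, Spin2c, Pdlim4 and Hoxb1. Requiring at least 3 of the 4 genes gave 9, applying the rule after thinning 10 and omitting the limit on UMIs 3. Lower in all 3 were 13 genes (0.267%), among them the VEGF receptor gene Flt1, the adrenomedullin co-receptor gene Ramp2, Bmp2, Gadd45g and Aplnr. After thinning 20 genes were lower, and without that limit 8. These cells were also separated by the rule's excluded genes, so the counts are a description. Msx2 was at 64.9, 56.3 and 67.4 CPM in members and 21.9, 13.8 and 22.4 CPM in the progenitors. Krt8 was at 259.8, 956 and 482 CPM and 196, 358 and 278 CPM in the same order.

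Cardiac mesoderm was compared at E7.25 and E7.5 posterior, with 142 and 243 cells. These cells had at least 2 of 5 heart genes (Nkx2-5, Tbx5, Smarcd3, Myl7 and Tnnt2). They held no UMI of Etv2, Tal1, Elf5 and Rhox9 and were not members. Cells that met both rules were therefore counted as members, so the 2 sides share heart genes. The 43 such cells at E7.0 were too few. In both libraries 83 genes were at least 2-fold higher in members (1.60% of 5180) and 53 lower (1.02%), which again describes how the cells were chosen. Cdx2, the caudal homeodomain factor, was at 93.6 and 94.5 CPM in members against 17.7 and 13.3 CPM. Sfrp1, a WNT antagonist, was lower in members, at 27 and 20.2 CPM against 201 and 142 CPM. Foxc2, a forkhead factor of paraxial and cardiac mesoderm, was lower as well.

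Between libraries, members of E7.0 carried more streak transcripts and those of E7.25 more of keratin and actin-binding genes. Of 5567 genes tested, 350 were at least 2-fold higher at E7.25 than at E7.0 (6.29%) and 160 lower (2.87%). Of 12 measured streak genes, 9 were lower at E7.25 and none higher, with a median log2 ratio of -1.79 against 0.11 over all genes. Tdgf1, the NODAL co-receptor gene, was at 228 CPM (202 to 256) at E7.0 and 19.995 CPM (15.5 to 25.4) at E7.25, a log2 ratio of -3.51 (-3.92 to -3.12). Eomes, the T-box factor upstream of Mesp1, was at 101, 14.2 and 11 CPM, and Mesp1 itself at 961, 311 and 507 CPM. Both were highest at E7.0.

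Other cells moved in the same direction for part of this list. In nascent mesoderm Tdgf1 was at 444, 142 and 115 CPM and Eomes at 189.8, 66.5 and 66.9 CPM, log2 ratios of -1.64 and -1.51 between E7.25 and E7.0. In members they were -3.51 and -2.82. The histone gene Hist1h2ap went from 835 to 47.3 CPM in members and from 739 to 45.2 CPM in all other kept cells. It thus differed between whole libraries.

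Cytoskeletal genes were higher at E7.25. In the actin, annexin and S100 list 10 of 21 measured genes were higher than at E7.0 and none lower, with a median log2 ratio of 0.99. At 20 CPM or more were 16, 21 and 17 genes of this list in the 3 libraries, so some were measured only through E7.25. Tagln, a smooth muscle actin-binding protein gene, was at 23 CPM (15.4 to 33), 139 CPM (127 to 153) and 35.7 CPM (29.7 to 42.6). Acta2, smooth muscle actin, had 1 UMI at E7.0 and was at 0.792, 37.3 and 7.78 CPM. Lgals1, encoding galectin-1, was at 42.8, 208 and 86.5 CPM. Compared with E7.25, 6 of 21 genes of this list were lower at E7.5 posterior and none higher. All 30 listed genes summed to 3700, 4671 and 4239 CPM, highest at E7.25.

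The keratin pair showed the same order. Krt8 was at 259.8 CPM (232 to 289), 956 CPM (923 to 990.1) and 482 CPM (459.6 to 506), with log2 ratios of 1.88 from E7.0 to E7.25 and -0.99 from E7.25 to E7.5 posterior. Krt18 gave 2.26 and -1.11. In the other kept cells Krt8 was at 201, 319 and 159 CPM, also highest at E7.25, with log2 ratios of 0.66 and -1.01. A single member held a median of 2.0, 7.0 and 3.0 Krt8 UMIs and at most 16, 47 and 28.

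Krt8 and Krt18 lie 23697 bases apart on chromosome 15, on opposite strands. Krt8 spans bases 101996698 to 102004482 on the minus strand and Krt18 bases 102028180 to 102032027 on the plus strand (GENCODE M21 on GRCm38). Because their levels moved together across libraries and members, their proximal upstream sequences are shown, from windows that begin 250 bases before the RefSeq start (RefSeq, GRCm38.p6), 5′ to 3′ along the gene. Capitals mark the E-box CANNTG, the kind of site that basic helix-loop-helix factors such as HAND1 and MESP1 can bind. The Krt8 window is chr15:102004483-102004592 on the minus strand and the Krt18 window chr15:102027966-102028075 on the plus strand.
Krt8: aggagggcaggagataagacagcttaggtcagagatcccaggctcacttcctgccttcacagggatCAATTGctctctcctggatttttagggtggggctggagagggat
Krt18: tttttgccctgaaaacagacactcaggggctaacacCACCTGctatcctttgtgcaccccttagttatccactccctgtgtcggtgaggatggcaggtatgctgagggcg
Each window held 1 match on either strand, and 39.0% of the same windows of 27025 genes held at least 1, so a match is common. A match describes these letters and says nothing of binding.

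Cdx2 and Cdx4 were higher after E7.0, and Hoxb1 and Hoxb2 in the E7.5 posterior library. All 5 measured genes of 32 listed Hox and Cdx genes were at least 2-fold higher in the E7.5 posterior library than in that of E7.0. In that comparison 134 of 5450 genes were higher (2.46%) and 61 lower (1.12%). At 20 CPM or more were 2 of the listed genes at E7.0 and 5 at E7.5 posterior. The others were thus measured only through the library where they were high, and their direction largely follows from that filter. Cdx2 was at 10.3 CPM (5.48 to 17.6), 93.6 CPM (83.5 to 105) and 94.5 CPM (84.6 to 105). Cdx4 had no UMI in the E7.0 members and was at 30.3 and 23.3 CPM later, at least 3.67 on the log2 scale above the level that 3 UMIs would give at E7.0. Hoxb1, the most 3′ Hoxb gene, was at 38, 40.6 and 105 CPM and Hoxb2 at 28.5, 26.4 and 57.3 CPM. In the allantois and yolk sac list, 7 of 15 measured genes were higher at E7.25 than at E7.0 (Tbx20, Pitx1, Spin2c, Cdx2, Cdx4, Cited1 and Dlk1) and Wnt2 was lower. Cdx2 and Cdx4 were thus already high at E7.25, whereas Hoxb1 was higher in the E7.5 posterior library than in both others.

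Detection told Cdx2 and Cdx4 apart. Cdx4 was detected in 0%, 11.8% and 8.83% of members at 5000 UMIs and in 0%, 0% and 0.604% of visceral endoderm cells. The 0 of 103 members at E7.0 allow a share of up to 2.91% of members with a Cdx4 UMI at this depth, taking 3 counts as the limit (exact upper bound 3.52%), which is no limit on cells that express the gene weakly. Cdx2 was detected in 4.85%, 28.5% and 30.9% of members but also in 15.4%, 14.7% and 20.5% of visceral endoderm cells, above which the members stood at E7.25 and E7.5 posterior and below which they stood at E7.0. In nascent mesoderm Cdx4 was at 0, 1.04 and 0.95 CPM.

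Brachyury and the retinoic acid synthesis gene Aldh1a2 were highest at E7.5 posterior. From E7.25 to E7.5 posterior, 80 of 5586 genes were at least 2-fold higher (1.43%) and 99 lower (1.77%). Brachyury (T) was at 28.5 CPM (19.97 to 39.5), 47 CPM (39.9 to 55) and 104 CPM (93.3 to 115), while nascent mesoderm had 165, 313 and 331 CPM. All other kept cells had 94.9, 146 and 230 CPM, also highest at E7.5 posterior. Aldh1a2 was at 1.58, 5.76 and 26.8 CPM in members and 0.489, 6.24 and 34 CPM in nascent mesoderm, so it also differed between these libraries outside the members. Cyp26a1, which breaks retinoic acid down, was highest at E7.0, at 45.1, 6.36 and 5.76 CPM.

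Several lineage genes differed less than 2-fold between libraries. Msx2 was at 64.9, 56.3 and 67.4 CPM and Hand2, a relative of Hand1, at 45.9, 46 and 29.7 CPM. Id1 and Id3 were at 119, 108 and 169 and 329, 254 and 414 CPM, although Id2 was at 15, 66 and 54.2 CPM and more than 2-fold higher in both later libraries. Of 9 BMP response genes measured, 1 was higher and 1 lower at E7.25 than at E7.0. Glucose transporter genes did differ, with Slc2a1 at 176, 523 and 354 CPM and Slc2a3 at 58.6, 204 and 159 CPM. Vegfa, a hypoxia-responsive growth factor gene, was at 3.96, 21.5 and 9.22 CPM.

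H19, a maternally expressed long RNA, was at 181, 654 and 231 CPM in members, 44.8, 209 and 51.2 CPM in nascent mesoderm and 202, 993 and 161 CPM in the other kept cells. Its E7.25 peak was therefore a property of that library as a whole. The immediate early genes Fosb, Jun, Egr1 and Klf6 were at least 2-fold higher at E7.25 than at E7.0, as 4 of 11 measured genes of that list. Jun was at 93.4, 201 and 87.9 CPM in members, against 55.1, 123 and 63.3 CPM in the other kept cells. Whether cell handling took part in the E7.25 values was not tested.

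**Figure D3:**
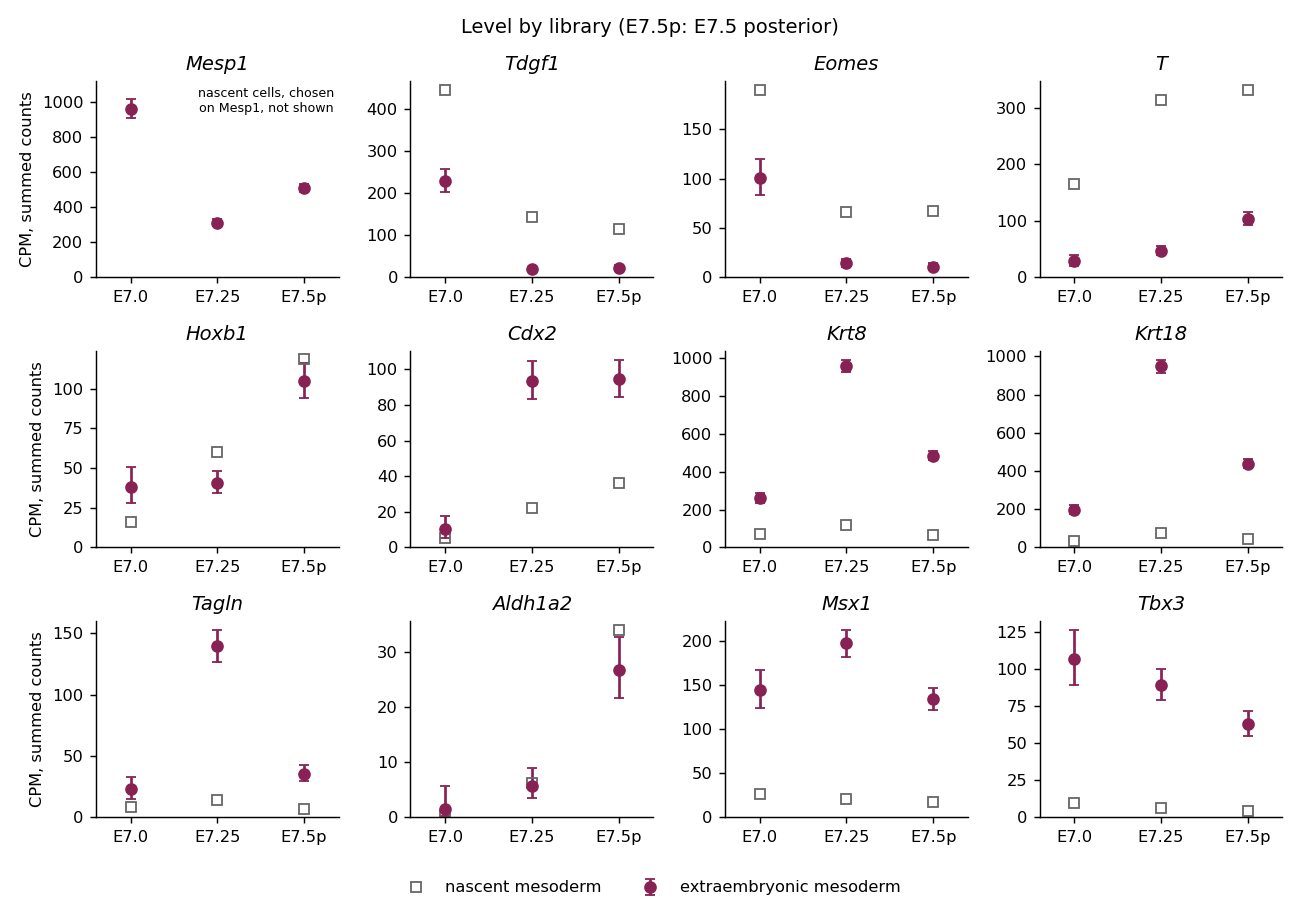
CPM of selected genes in the members of each library (filled circles, with exact 95% Poisson intervals) and in nascent mesoderm (open squares), except Mesp1, on which nascent cells were chosen. Axes start at 0. Mesp1, Tdgf1 and Eomes are highest at E7.0, Krt8, Krt18 and Tagln at E7.25, and brachyury (T), Hoxb1 and Aldh1a2 at E7.5 posterior.

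Visceral endoderm and globin transcripts in the E7.25 members came largely from few cells. Of 13 measured visceral endoderm genes, 11 were at least 2-fold higher at E7.25 than at E7.0, and the same 11 were lower again at E7.5 posterior. At 20 CPM or more were 4, 13 and 3 listed genes in the 3 libraries, so most were measured only through E7.25. These counts are therefore largely set by that filter. All 24 listed genes summed to 620, 1419 and 598 CPM. Ttr, the thyroid hormone carrier made by visceral endoderm, was at 6.33, 90.3 and 6.05 CPM in members and 436, 957 and 208 CPM in the other kept cells. Its 298 UMIs at E7.25 were spread over 66 members, of which the 25 highest held 257. Hbb-bs, a beta globin gene, had 242 UMIs in 22 of 364 members, and 1 cell held 221 of them. Clustering also gave a group of 25 members led by these genes, which is not the same set as the 25 highest in Ttr. Without that group, the log2 ratio between E7.25 and E7.0 went from 3.83 to 1.96 for Ttr. It went from 2.47 to 1.07 for Apoa1 and from 2.53 to 0.97 for Rbp4. For Mesp1 it went from -1.63 to -1.5. That leave-out was chosen after the data were seen.

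Within each library, members with more of the rule's genes had less Mesp1 and more keratin. Members with 2, 3 and 4 of Bmp4, Foxf1, Pmp22 and Ahnak numbered 47, 42 and 16 at E7.0, 99, 144 and 121 at E7.25, and 136, 131 and 61 at E7.5 posterior. Mesp1 was at 1223, 1004 and 149 CPM in these 3 strata at E7.0, at 645, 306 and 68.7 CPM at E7.25 and at 712, 485 and 113 CPM at E7.5 posterior. The log2 ratio of 4 of 4 to 2 of 4 was -3.04 (-3.61 to -2.51), -3.23 (-3.59 to -2.89) and -2.65 (-3.01 to -2.31). Mesp1 was thus lower at each step in every library.

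Krt8 ran the other way. It was at 135, 266 and 577 CPM at E7.0, 495, 968 and 1283 CPM at E7.25 and 224, 501 and 998 CPM at E7.5 posterior, with log2 ratios of 2.1 (1.66 to 2.54), 1.38 (1.22 to 1.53) and 2.15 (1.96 to 2.35). Krt18 gave log2 ratios of 2.47 (1.95 to 3.01), 1.41 (1.25 to 1.57) and 2.49 (2.28 to 2.71). Podxl was at 15, 30.4 and 104 CPM, 77.7, 139 and 190.3 CPM and 38.6, 91.3 and 113 CPM in the strata of the 3 libraries. Applying the rule after thinning turned the E7.5 posterior ratio of Podxl from 1.55 to -0.085 (-0.91 to 0.66). Mest, an imprinted hydrolase gene, was at 108, 149.9 and 463 CPM, 184, 303 and 415 CPM and 125, 272 and 431 CPM.

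Over all genes, 38 of 4853 were at least 2-fold higher in 4 of 4 than in 2 of 4 members in all 3 libraries (0.783%) and 11 lower (0.227%). The strata were cut on genes of the same cells, so nothing is read from these counts. Without the E7.0 library, whose 4 of 4 stratum held 16 cells, they were 76 and 30. The 11 lower genes were Sp5, Frzb, Meis2, Efna3, Evx1os, Dll3, Mesp1, Tdgf1, Lhx1, Fgf8 and Pcdh19, several of them streak genes. Of these, Lhx1 at E7.25 was 1.12 (0.31 to 2.0) without the limit on UMIs in place of -1.53. Sp5 at E7.25 was 0.47 (-0.94 to 1.80) after thinning in place of -1.61. At E7.0 all 11 except Meis2, Mesp1 and Tdgf1 had 3 UMIs or fewer in 4 of 4 members, so their ratios there are bounds. Some ratios in the other libraries are bounds too, such as that of Fgf8 at E7.25. Among the 38 were the keratin genes Krt8, Krt18 and Krt19, the cytoskeletal genes Tagln, Anxa2 and Myh9, and Spin2c, Morc4 and Stard8. When the rule was applied after thinning, they were 1 and 2, and the strata of 4 of 4 then held 1, 55 and 22 cells. Krt8 then had log2 ratios of 0.72 (0.57 to 0.87) at E7.25 and 0.84 (0.60 to 1.08) at E7.5 posterior, and Mesp1 -2.49 (-3.04 to -1.98) and -1.53 (-2.05 to -1.04).

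Other lineage genes differed in how they ran along the strata. Msx1 was higher at each step in every library, at 118, 131 and 249 CPM, 172, 187 and 228 CPM and 101, 131 and 211 CPM. Msx2 had log2 ratios of 0.33 (-0.60 to 1.2), 0.35 (-0.22 to 0.94) and 1.67 (1.17 to 2.19), so that its interval lay above 0 at E7.5 posterior. Tbx3 had log2 ratios of 0.15 (-0.68 to 0.93), 0.15 (-0.32 to 0.64) and 0.83 (0.30 to 1.36), and Phlda2 0.57 (0.45 to 0.70), -0.18 (-0.26 to -0.11) and 0.00 (-0.07 to 0.07). Cdx2 was at 88.3, 105 and 85.2 CPM at E7.25 and 85.5, 109 and 84.4 CPM at E7.5 posterior. Depth rose slightly along the strata at E7.0 and E7.25, with medians of 11028, 12506.5 and 12631 UMIs and of 7974, 8764 and 9251 UMIs. At E7.5 posterior the medians were 10092.5, 9757 and 10502 UMIs. Its part in the detection of the 4 genes was not tested apart from the thinned rule.

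**Figure D4:**
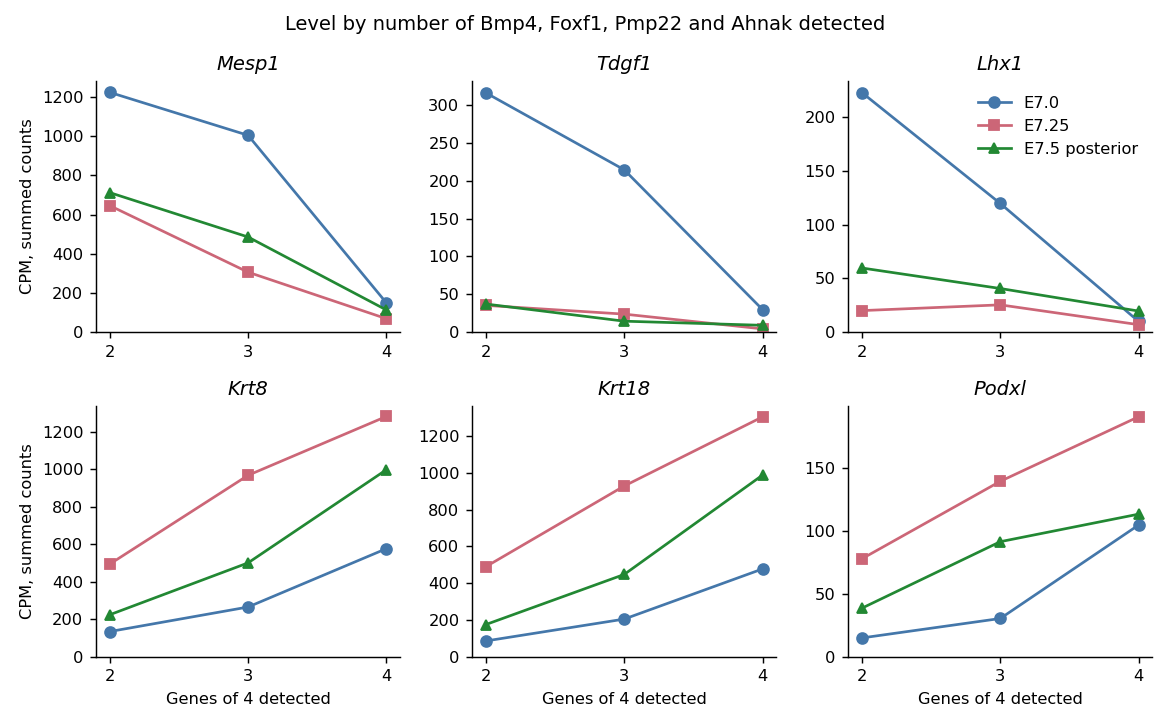
CPM of selected genes in members with 2, 3 or 4 of Bmp4, Foxf1, Pmp22 and Ahnak detected, 1 line per library. Mesp1, Tdgf1 and Lhx1 are lowest at 4 of 4 in every library, although Lhx1 at E7.25 is slightly higher at 3 of 4 than at 2 of 4, and Krt8, Krt18 and Podxl are highest at 4 of 4. With the rule applied after thinning, the Podxl ratio of 4 of 4 to 2 of 4 at E7.5 posterior is -0.085.

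Library differences at equal strata are given for both ends of the rule, whose own genes cut the strata. Within 4 of 4 members, Krt8 had log2 ratios of 1.15, -0.36 and 0.79 for E7.25 over E7.0, E7.5 posterior over E7.25 and E7.5 posterior over E7.0. Within 2 of 4 members these were 1.88, -1.14 and 0.74, and without strata 1.88, -0.99 and 0.89. Mesp1 had -1.12, 0.72 and -0.40 within 4 of 4, -0.92, 0.14 and -0.78 within 2 of 4 and -1.63, 0.71 and -0.92 without strata. Each Krt8 ratio was nearer 0 in the 4 of 4 stratum, which held 16 cells at E7.0, than without strata. In 2 of 4 members the first and second of them were about as large as without strata. For Mesp1 the ratio of E7.5 posterior to E7.25 was near 0 in 2 of 4 members.

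At 5000 UMIs per cell, Mesp1 was detected in 62.1%, 32.7% and 53.7% of members with a Krt8 UMI and in 93.3%, 86% and 89.3% of members without one. Krt8 was detected in 71.1%, 93.9% and 84.3% of members with a Krt18 UMI and in 47.7%, 52.9% and 40% of those without. Of members with a brachyury (T) UMI, 81.8%, 80% and 83.7% had Mesp1, against 75%, 33.7% and 58.4% of those without. Brachyury was detected in 16.1%, 24.8% and 40% of members with a UMI of Pou5f1, the pluripotency factor gene that streak cells retain, and in 2.44%, 7.94% and 14% of members without. The share with Mesp1 was thus lower among members with a Krt8 UMI in each library, although most Krt8-positive members at E7.0 and E7.5 posterior also held Mesp1. Only 11 members had a brachyury UMI at E7.0. These are shares of cells from 1 library each and carry no test.

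Clustering of members alone gave 5 groups in the E7.25 library and 4 in that of E7.5 posterior. The 105 members at E7.0 were below the 200 required. The groups are described by their leading genes and stay unnamed, and all genes below were part of the clustering. Group 1 at E7.25 (110 cells) was led by Mesp1, brachyury (T), Hoxb1, Fst and Cdx4, with Mesp1 at 779.7 CPM and Krt8 at 296 CPM. In contrast, group 2 (108 cells) was led by Acta2, Myl9, Tnnt2, Tagln and Ahnak, with Mesp1 at 15.1 CPM and Krt8 at 1779 CPM. Group 3 (77 cells) was led by Sfrp1, Myl7 and Mef2c, and had Cdx2 at 4.65 CPM. Heart genes were not confined to group 3, since Tnnt2 was among the leading genes of group 2. Smarcd3 was at 94.6 CPM in group 2 and 109 CPM in group 3, and Myl7 at 167 and 603 CPM.

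Group 4 at E7.25 (44 cells) was led by Apela, Hoxd9 and Pitx1 and had Cdx2 at 203 CPM, Pitx1 at 124 CPM and Tbx4 at 28.95 CPM, against 4.81 CPM of Tbx4 in group 1 and 5.87 CPM in group 5. Apela encodes a peptide ligand of the apelin receptor. The 25 cells of group 5 were led by globin and visceral endoderm genes, with Ttr at 661 CPM against 24.7 CPM in the other groups. A single member held 221 of the 242 Hbb-bs UMIs of this library, so the Hbb-bs level of group 5 rests largely on 1 cell. The median depth of group 5 was 13245 UMIs, the highest of the 5 groups, where the other 4 had medians of 7766 to 9030 UMIs. Whether these cells were doublets or had taken up free RNA was not tested cell by cell.

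At E7.5 posterior, groups with similar leading genes appeared. Group 1 (138 cells) was led by Meis1, Myl7 and Rbm24 and had Myl7, an atrial myosin light chain gene, at 306 CPM. Group 2 (86 cells) was led by brachyury (T), Fst and Fgf8, with T at 287 CPM, Pou5f1 at 401 CPM and Krt8 at 127 CPM. Group 3 (75 cells) was led by Ahnak, Anxa2 and Krt18, with Krt8 at 1230.1 CPM and Mesp1 at 48.9 CPM. Group 4 (29 cells) was led by Apela, Alox15 and Hoxd9 and had Cdx4 at 92.2 CPM.

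Both libraries thus held a group with high Mesp1 and brachyury, a group with high keratin and annexin, a group with high Myl7 and a group with high Apela and Hoxd9. Msx1 was present in each, from 78.9 CPM in group 2 at E7.5 posterior to 234 CPM in group 4 at E7.25. The keratin-high group made up 29.7% of the E7.25 members and 22.9% of those from E7.5 posterior, the group with high brachyury 30.2% and 26.2%, the group with high Myl7 21.2% and 42.1% and the group with high Apela 12.1% and 8.84%. Group sizes are not compared between libraries, because each library was clustered by itself.

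**Figure D5:**
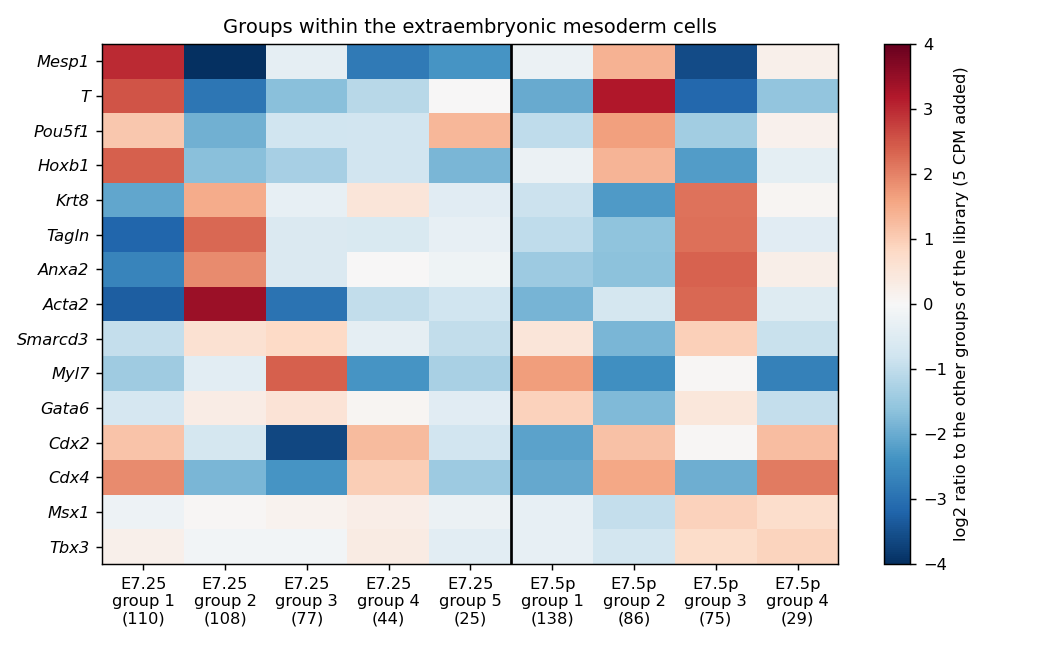
log2 ratio of CPM in each group of members to the other groups of the same library, with 5 CPM added to both sides, for E7.25 (left of the line) and E7.5 posterior (E7.5p), with cell numbers in parentheses. Mesp1, brachyury (T) and Hoxb1 are high in E7.25 group 1 and E7.5p group 2, and Krt8, Tagln and Anxa2 in E7.25 group 2 and E7.5p group 3.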

How the data were processed

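Single-cell RNA was measured in 3 libraries of ARC strain embryos, 1 per group, dissociated with trypsin and captured on 10x Chromium with the 3′ protocol, version 3.0 or 3.1, per the labels' protocols. Cell Ranger, in version 6.0.1 per the file headers, wrote the deposited matrices. Their values are whole UMI counts to which the authors applied no scaling. The genome build is not given in the sources used here. Of 32285 gene identifiers, 32235 were found in GENCODE M21 (GRCm38) and 50 were not.

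The cell filter asked for at least 1000 detected genes, at most 10% mitochondrial UMIs and under 20000 UMIs. Counts were summed over cells and scaled to CPM. A gene was tested at 20 CPM or more on at least 1 side and called at a 2-fold difference, and no p-value was computed. A gene could thus be measured only through the side where it was high, so counts within lists lean toward that side. With 3 UMIs or fewer on a side, that side is set to 3 UMIs and the ratio is a bound. Such bounds are included in the counts of genes at least 2-fold apart. Genes with 1 to 3 UMIs are given as levels. Intervals are Poisson, conditional binomial or Clopper-Pearson, and their script was tested on simulated data. Predicted doublets were kept in the main values and removed in an alternative. They numbered 145, 198 and 670 scored cells, the last by the highest scores because the automatic limit marked 6 there. Visceral endoderm cells had 10 or more UMIs of Ttr and 5 or more of Apoa1 and were not members. Members of libraries with at least 200 of them were clustered with scanpy 1.11.5 and leidenalg 0.10.2 (20 principal components, 15 neighbours, 1500 variable genes, resolution 0.5). The 25 cells of group 5 at E7.25, the E7.25 library and the E7.0 library were left out in turn as alternatives chosen after the data were seen. Python 3.11.15, numpy 2.4.6 and scipy 1.17.1 were used.

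Members and the 32 gene lists were chosen with earlier results of these data known. The genes named belong to those lists, at 20 CPM or more in a library compared, or were among the 12 highest and lowest ratios between libraries or the 10 highest and lowest between populations at 50 CPM or more. Genes of a rule, ribosomal protein and mitochondrial genes, Xist and Tsix, Y-linked genes and Gm or Rik models were left out of that ranking. Some genes that meet this rule are not reported here. Genes that fall outside it, such as the leading genes of groups and strata, Pou3f1 and genes at or near 0, were chosen after their values were seen.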

Additional observations from a re-analysis of the deposited data

Results flagged for a closer look

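Pou3f1, a POU-domain factor gene, differed in opposite directions between members and blood and endothelial progenitors. The log2 ratio of members to progenitors was 1.18 at E7.0, where the levels were 22.2 and 9.77 CPM. At E7.5 posterior it was -1.8, with levels of 5.76 and 20.004 CPM. With 1 library on each side the difference between stages was not tested. Members and progenitors were chosen in the same libraries, and when the rule was applied after thinning the E7.0 value was -0.52.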

How the results depend on the processing

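No paired analysis was possible because the labels give no replicate numbers and each group was 1 library. Leaving out replicates was not possible for the same reason. Pairs of counts below are genes at least 2-fold higher and lower. The member share at E7.25 was 8.07% with at most 5% mitochondrial UMIs. Over the 3 libraries it was 1.99%, 8.29% and 5.21% with 1 or more Hand1 UMIs, 1.18%, 6.25% and 3.32% with 3 or more, 0.854%, 5.25% and 2.42% with at least 3 of the 4 genes and 0.809%, 6.01% and 2.59% with the rule applied after thinning, always lowest at E7.0 and highest at E7.25. With at least 3 of the 4 genes, E7.5 posterior against E7.0 gave 236 and 92, and 9.0 genes were higher in members than in blood progenitors. After thinning these were 260.0 and 115, and 10 and 20 against blood progenitors, and the strata gave 1.0 and 2.0 with 1 cell at E7.0 with 4 of 4. Without an upper limit on UMIs, the comparison with blood progenitors gave 3.0 and 8.0. A minimum of 50 CPM gave 131 and 86 for E7.25 against E7.0, 43 and 50 for E7.5 posterior against E7.25, 33 and 29 for E7.5 posterior against E7.0, 31 and 17 against nascent mesoderm, 3.0 and 3.0 against blood progenitors, 35 and 13 against cardiac mesoderm and 24 and 2.0 in the strata. With no minimum they were, in this order, 1028 and 576, 592 and 680.0, 693 and 381, 224 and 107, 26 and 48 and 253 and 183. Fewer or more genes tested sets these numbers. Without the E7.0 library, a setting added after seeing the data, the strata gave 76 and 30.

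Of 464 gene ratios, 461 moved by less than their counting interval under TMM scaling, which shifted the median gene by 0.09 at most, and 263 of the 455 that could be computed did so after thinning. Sign changes of 2-fold ratios were few. Lhx1 between 4 of 4 and 2 of 4 members at E7.25 was 1.12 without the UMI limit, in place of -1.53. After thinning, Sp5 in the same comparison was 0.47, Podxl at E7.5 posterior -0.0853, and Pou3f1 against blood progenitors at E7.0 -0.52. Apoa1 between E7.5 posterior and E7.0 was 0.22 with 1 or more Hand1 UMIs. The cause was not tested. With 1 library per group, depth limits only the counting error, and the spread between embryos is unknown.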

Other observations

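Signalling genes outside the lists described above also differed between members and nascent mesoderm. Dkk1, a secreted WNT antagonist, was at 60.2, 13.6 and 30.8 CPM in the members of the 3 libraries and at 21, 19.8 and 22.4 CPM in nascent mesoderm. Nkd1, an intracellular WNT feedback inhibitor, was at 72.1, 82.4 and 78.1 CPM against 24.3, 32.6 and 30.1 CPM, while Frzb, another secreted antagonist, was at 26.1, 11.5 and 25.4 CPM against 87.1, 92.7 and 84 CPM. Cfc1, a NODAL co-receptor gene, was higher in members in every library, at 72.9, 87.9 and 68.9 CPM against 13.4, 26 and 11.3 CPM. The NODAL co-receptor gene Tdgf1 was lower than in nascent mesoderm, at 228, 19.995 and 22.8 CPM against 444, 142 and 115 CPM.

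Transcription factors and matrix genes showed further differences. Gata6, a zinc-finger factor of endoderm and lateral mesoderm, was at 63.4, 71.5 and 58.8 CPM in members against 60.5, 34.6 and 26.2 CPM, and Tbx20 at 17.4, 36.1 and 24.5 CPM against 2.79, 6.93 and 2.03 CPM. Twist1, a mesenchymal helix-loop-helix factor, ran the other way, at 11.9, 21.8 and 20.5 CPM against 38.7, 60.8 and 32.6 CPM. Sparc, a matrix glycoprotein gene, was at 261, 391 and 233 CPM against 80.7, 201 and 107 CPM. Of the primordial germ cell genes, Prdm1 was at 0, 0.606 and 0.576 CPM, Nanos3 at 0, 0.606 and 0 CPM and Dppa3 at 1.58, 0.303 and 0 CPM in members. Ifitm3, a membrane protein gene shared by germ cell precursors and mesoderm, was at 20.6, 41.5 and 38.3 CPM against 21.6, 41.4 and 34.8 CPM in nascent mesoderm. The values describe cells chosen on Hand1 and Mesp1 and carry no test.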
